A study of Mus musculus with 11 samples.

Results

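The renin-angiotensin system was followed through the cells of the mouse kidney by 8 genes, chosen by their symbols among the 28692 genes counted: Agt, Ren1, Akr1b7, Ace, Agtr1a, Agtr1b, Enpep and Mme. The 11 libraries were droplet-based single-cell RNA-seq (10x Genomics, 3′ end) of adult kidney suspensions made with a cold active protease. They held 5 control kidneys, 3 kidneys after unilateral ischemia/reperfusion (UIR) and 3 after unilateral ureter obstruction (UUO). The mice were male C57Bl/6, 10 weeks old at the operation. UIR was a clamp of the left renal pedicle for 30 min, UUO an irreversible ligation of the left ureter, both kidneys were taken at day 28, and the controls were age-matched naive mice with no sham operation stated. No transgene or deletion was carried by any group, and the methods give as many mice as libraries, while the labels do not tie libraries to mice, so p-values measure the spread between libraries. The titles of the controls carry 3 different stems (library 1, libraries 2 and 3, libraries 4 and 5) and those of each injury a single one, and as no label names a batch, a batch that goes with injury cannot be told apart from it.

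In this system renin, made from Ren1 in the juxtaglomerular cells at the glomerular arteriole, cuts angiotensinogen, the product of Agt, into angiotensin I. Angiotensin-converting enzyme (Ace) turns this into angiotensin II, which constricts vessels and drives sodium retention through the type 1 receptors (Agtr1a, Agtr1b), and the membrane peptidases aminopeptidase A (Enpep) and neprilysin (Mme) break the peptides down. Akr1b7, an aldo-keto reductase, is a known companion marker of renin cells. The kidney is known to hold the whole pathway locally, with Agt in the proximal tubule and the receptor in mesangial and perivascular cells.

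Cells were recalled from the raw barcode matrices, and 40484 were kept: 10240 from controls (1858 to 2495 per library), 16927 from UIR (3995 to 7442) and 13317 from UUO (3785 to 5263). All barcodes of a library held 91920461 to 110914244 UMIs (unique molecular identifiers, each 1 captured transcript) in the control group, 49503312 to 60918546 in UUO and 82522753 to 117043590 in UIR. Barcodes with over 30% mitochondrial UMIs, which were dropped, made up 57.0% to 78.7% of those called in control libraries, while UIR libraries had 23.6% to 36.9% and UUO libraries 3.13% to 7.67%, and what part the mitochondria-rich PT cells and what part cell quality had in this was not tested. Clusters were named from marker genes into proximal tubule (PT, with segments S1 to S3), failed-repair tubular epithelial cells (frTEC), loop of Henle, distal tubule, principal, intercalated, podocyte, endothelial, stromal (Fibro 1 secretory, Fibro 2 contractile, Fibro 3) and immune classes, and 4236 cells stayed unnamed. A cluster was named for every class with fixed markers but patrolling monocytes, for which the cluster named classical monocytes also scored high. The PT made up 47.3% to 54.9% of kept control cells, against 5.46% to 11.1% after UIR and 0.817% to 1.45% after UUO. Of 40272 distinct kept barcodes, 211 occurred in more than 1 library.

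Levels are in CPM, the UMIs of a gene scaled to the same total of UMIs in every pool, a pool being all kept cells of a class in 1 library (at least 20 cells). Since each transcript is counted once at its 3′ end, levels are compared between cells and groups, and between genes only as counts. Folds and adjusted p-values come from edgeR's quasi-likelihood test on the pool counts, with Benjamini-Hochberg adjustment over every gene tested in the class, a threshold of 0.05 and 5 control, 3 UIR and 3 UUO libraries unless fewer are stated. Both injuries were set against the same controls, so their values are not independent of each other.

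The genes lay in different but partly shared classes of the control kidney. Of all Ren1 UMIs in kept control cells 96.4% lay in stroma, and of Akr1b7 98.6%. Agt lay in the PT (77.8%) and in frTEC (20.4%). Ace lay in the PT (91.1%) and in endothelium (4.46%), Agtr1a in the PT (57.1%) and in stroma (39.2%), and all Agtr1b UMIs in stroma, where only 1 was seen. Enpep lay in podocytes (66.0%) and the PT (27.8%), and Mme was spread over the PT (35.05%), podocytes (26.2%) and intercalated cells (20.5%).

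Per cell class, as opposed to per kidney, the order was another. By level in control libraries, stroma ranked first for Ren1 (mean 795 CPM), Akr1b7 (203) and Agtr1a (499), frTEC for Agt (104, 3 libraries, mostly from its cluster led by Aqp1 and Cryab), podocytes for Enpep (1671) and intercalated cells for Mme (771). The PT ranked first for Ace (43.1) among classes with control pools. The steps that pointed the same way in all 5 control libraries were stroma over intercalated cells for Akr1b7, PT over principal cells for Agt, PT over endothelium for Ace, stroma over PT for Agtr1a, PT over endothelium and distal tubule over macrophages for Enpep, and for Mme intercalated cells over podocytes, loop of Henle over distal tubule and PT over macrophages. These were 9 of the 65 neighbouring steps measured in 5 libraries (exact paired sign-flip permutation test, two-sided, smallest possible p 0.0625), and between the other neighbours measured in 5 the libraries pointed both ways or were tied.

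**Figure D1:**
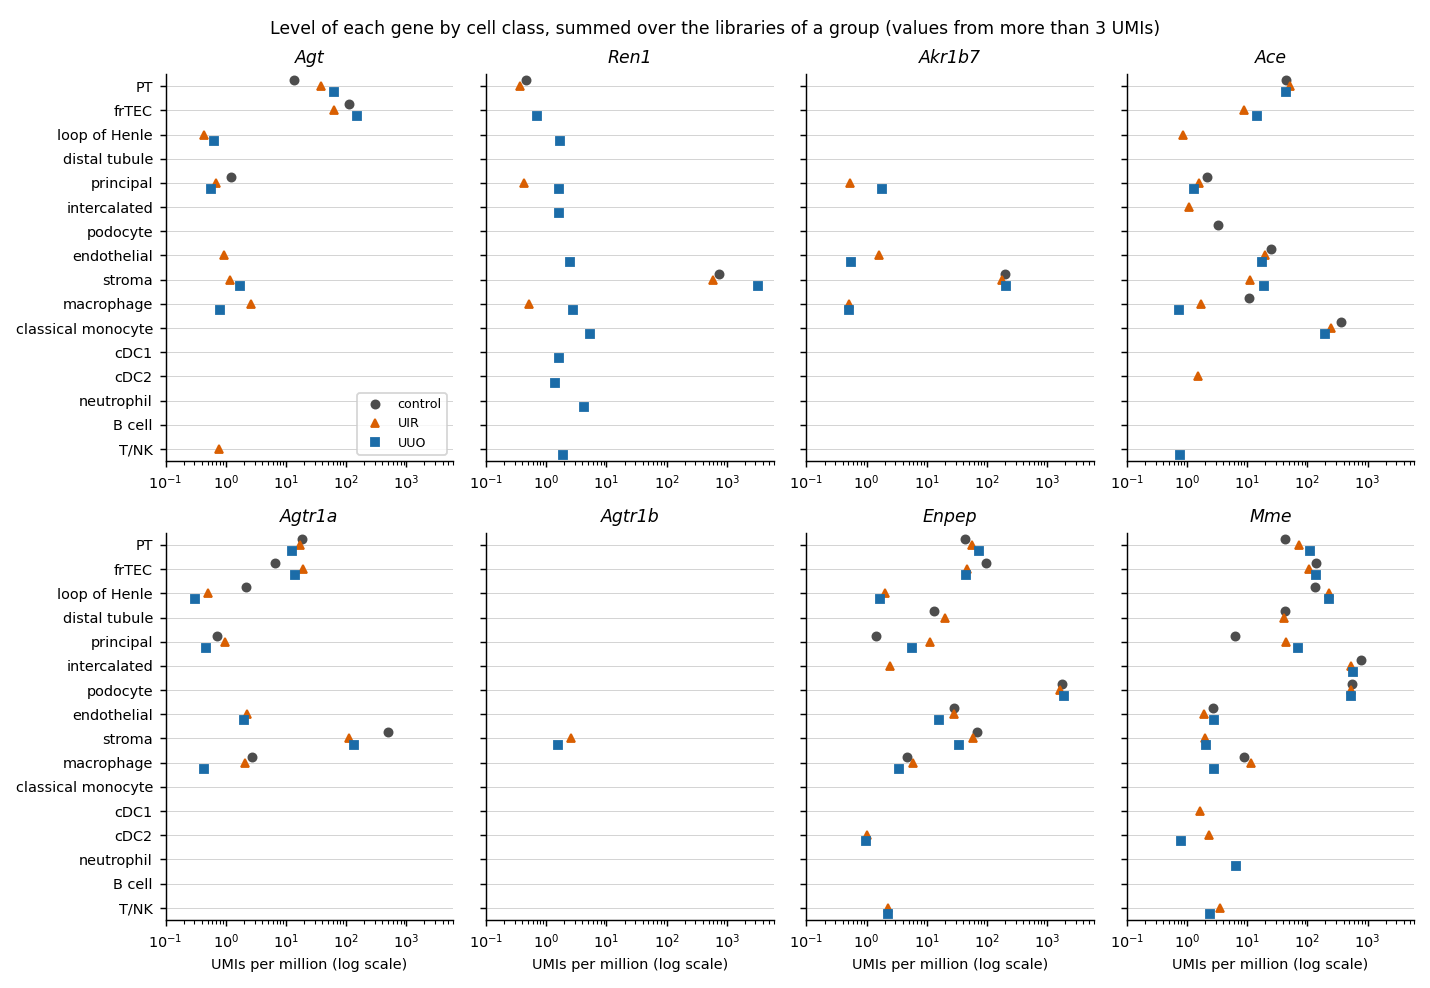
CPM on a log axis (horizontal) for each of the 8 genes by cell class (vertical), summed over the libraries of a group, with circles for control, triangles for UIR and squares for UUO; sums of 3 or fewer UMIs are not drawn. Ren1 and Akr1b7 stand in stroma, Enpep peaks in podocytes, Mme in intercalated cells and podocytes, and Agt in frTEC and PT.

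The members lie on 6 chromosomes of the mouse genome (GRCm38): Ren1 at chromosome 1, 133350510-133360325 on the plus strand, Agt at chromosome 8, 124556534-124569706 on the minus strand, and Ace at chromosome 11, 105967945-105989964 on the plus strand. The receptor genes lie apart, Agtr1a at chromosome 13, 30336441-30382867 on the plus strand and Agtr1b at chromosome 3, 20314473-20367177 on the minus strand, on the same chromosome as Mme (63241537-63386030, plus strand) and Enpep (129269175-129332720, minus strand). Akr1b7 lies at chromosome 6, 34412334-34423142 on the plus strand. Agtr1a and Agtr1b transcripts share 33 stretches of 50 bases, but none in the last 500 bases, where these libraries read. Ren2, a second renin gene of some strains, is not among the genes counted here.

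Promoter stretches are shown because the renin gene and the gene of its substrate share a sequence feature that the choice of genes did not use. They run from 45 to 16 bases before the RefSeq start of transcription (GRCm38.p6), are written in the direction of the gene, and the capitals mark the TATA box letters TATAAA:

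Ren1, chr1:133350629-133350658, plus strand: tgtgatacatggtgtgTATAAAagaaggct
Agt, chr8:124569722-124569751, minus strand: tctccaccccttgagTATAAAtaagcctgc
Agtr1b, chr3:20367193-20367222, minus strand: acgcccctttgctgTATAAAttgtagctgt
Akr1b7, chr6:34412317-34412346, plus strand: cctcctttatccaggacataaaaatgtcac

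TATAAA begins 29 bases before the start in Ren1, 30 in Agt and 31 in Agtr1b, and is not in this window of Akr1b7. On the sense strand 25 to 35 bases before the start, TATAAA stands in 1.75% of the 32851 mouse promoters in the same table, among them those of 3 of the 7 members the table holds (10 promoters; Agtr1a was not matched). On either strand of the 250 bases before the start (TATAAA or its reverse TTTATA), it stands in 12.4% of promoters, among them those of Ace, Agt, Agtr1b, Enpep and Ren1. The letters TGACG or CGTCA, the core of a cAMP response element, stand in 17.8% of promoters of the same length and in none of the members' 10.

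After injury, members changed in tubular and stromal classes, in both directions. Of the 8 members 7 had enough counts for a test in at least 1 class, Agtr1b not. In UIR against control, 10 of the 26 member and class pairs tested were called (7 higher, 3 lower, 38.5% of pairs), against 11.2% of all 100338 gene and class pairs (6.24% higher, 4.99% lower). In UUO against control 12 of 26 were called (8 higher, 4 lower, 46.2%), against 17.5% of all pairs (9.12% higher, 8.35% lower). Between UUO and UIR none of 26 was called by edgeR, with 9 pairs at an unadjusted p under 0.05 and 1 called by DESeq2, against 1.88% of all 115639 pairs. The members' median log2 change was -0.0034 in UIR and 0.03 in UUO, where the medians of all genes by class ran from -0.01 to 0.09 and from -0.06 to 0.11. In finer pools (tubular segments, fibroblast and endothelial subtypes), members were called in 1 of 10 pairs for UIR (background 3.56%), 3 of 5 for UUO (8.02%) and 3 of 14 for UUO against UIR (2.06%). Members and the gene lists below were chosen with earlier results of these data known, so comparisons with the background are descriptions. The counts include Ace in stroma and Enpep in principal cells for both injuries, and Ren1 and Akr1b7 in Fibro 3 for UUO. These passed the low-count filter through the injured pools alone. At a stricter mitochondrial limit fewer pairs could be tested and fewer were called. Taking every barcode over a UMI limit also lowered the UUO count.

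Agt, the substrate of renin, was higher in the surviving PT cells of both injuries. Its PT level was 14.8, 11.98, 11.2, 12.6 and 15.6 CPM in the control libraries, against 26.9, 47.5 and 30.9 after UIR and 49.6, 45.1 and 109 after UUO. No injured library overlapped the controls. The change was 1.47 on the log2 scale in UIR (SE 0.20, adjusted p = 9.5e-05) and 2.21 in UUO (SE 0.31, adjusted p = 1.9e-04), that is 2.76-fold and 4.63-fold. The UUO pools held only 41 to 55 PT cells each. Both calls were lost at a mitochondrial limit of 15% (edgeR adjusted p = 0.095 in UIR and 0.98 in UUO). The lowest log2 changes under any alternative were 0.81 in UIR and 0.16 in UUO.

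Within the PT, Agt was graded by segment before injury. S1 cells, the first convoluted stretch, were low (2.36 CPM over all controls), S2 intermediate and S3, the straight end, highest, at 71.8, 56.8, 60.1, 65.9 and 76.1. S1 had 1.10 to 3.24 in the control libraries and 1.23, 11.6 and 7.54 in UIR, and the only UIR pool of S3 had 57.9, inside the control range, neither segment having enough counts or pools for a test. S2 alone had a control range of 10.4 to 16.2 and 30.3, 31.0 and 36.3 in the UIR libraries, a change of 1.29 on the log2 scale (SE 0.17, adjusted p = 6.8e-05). The S3 share of the PT, meanwhile, was 5.46% to 9.19% in controls and 1% to 3.87% in UIR.

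A small group of PT cells was far richer in Agt than the rest. A PT sub-cluster led by Serpina1a, Serpina1f and Slc7a12 held 1 control cell, 90 UIR cells and 10 UUO cells, and had Agt at 136 CPM in UIR and 330 in UUO. It carried 30.4%, 50% and 7.32% of the PT Agt UMIs in the UIR libraries and 30%, 23.8% and 60% in UUO. Without it Agt in the PT was 11.2 to 15.6 in controls, 20.3, 28.1 and 29.8 in UIR and 36.3, 36.9 and 51.3 in UUO, again with no overlap.

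**Figure D2:**
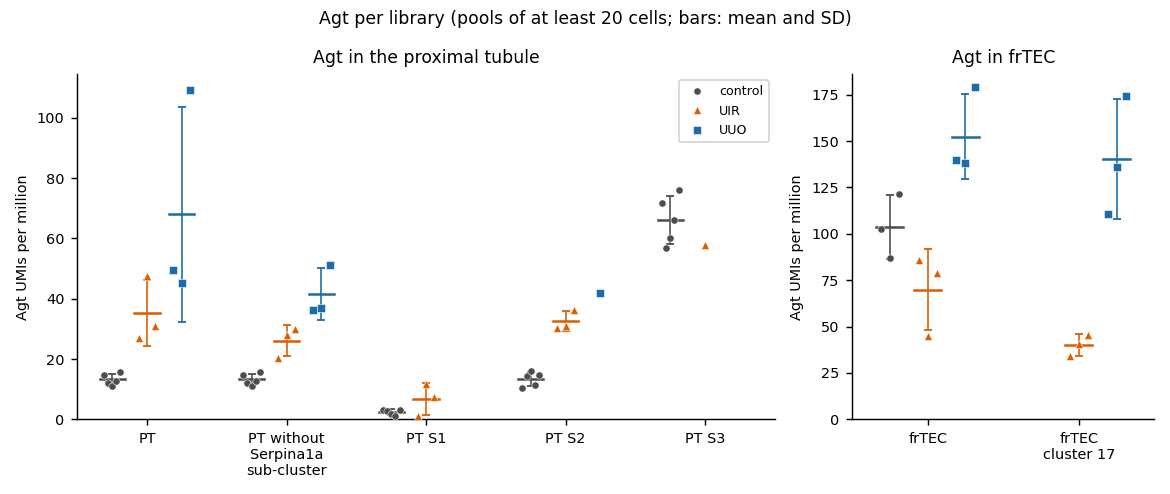
Agt in CPM per library (points) with group mean and SD (bars), for the PT, the PT without the Serpina1a sub-cluster and its segments S1 to S3 (left), and for frTEC and frTEC cluster 17 (right). Every injured PT pool lies above the control range of 11.2 to 15.6, while in frTEC the UUO pools lie highest and UIR lowest.

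In frTEC, the epithelial cells with stromal and injury genes, the class level of Agt was high in all groups. Of its 151 control UMIs, 143 lay in the cluster led by Aqp1 and Cryab. Control pools of enough cells (3 libraries) had 103, 87.2 and 122, UIR 85.8, 44.8 and 79.1, and UUO 140, 138 and 179. UIR lay below and UUO above every control pool, but neither difference passed the test (log2 -0.67, adjusted p = 0.17, and 0.41, adjusted p = 0.34). The class was made of different clusters, as the cluster led by Aqp1 and Cryab held 69.4% of control frTEC but 26.5% in UIR and 29.9% in UUO, and the one led by Spink1 and Slc13a1 the rest. Summed over libraries, Agt was 176, 138 and 179 CPM in the former and 14.3, 41.5 and 145 in the latter, so that UIR lay below control in the class and in the former cluster and above it in the latter, which had 33 control cells. The log2 difference between UUO and UIR was 1.08 (SE 0.22, adjusted p = 0.16). In the Spink1 cluster, which had no control pool of enough cells, UIR had 34.1, 40.8 and 45.7 and UUO 110, 136 and 174, a log2 difference of 1.68 (SE 0.19, adjusted p = 0.0095). That call was lost without UIR library 2 or UUO library 2 (log2 1.71 and 1.72).

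Over whole libraries no change of Agt was called. All kept cells together gave 9.22 to 12.8 CPM in controls, 8.47, 12.9 and 9.75 in UIR and 8.92, 10.2 and 14.6 in UUO, and neither injury was called (adjusted p = 0.081 and 0.094). The share of Agt UMIs in frTEC was 20.4% in controls, 54.3% in UIR and 86.3% in UUO, and that in PT 77.8%, 34.6% and 7.55%. In such whole-library pools, fewer cells of a type and less RNA per cell cannot be told apart. The same caveat holds for the other members' library totals below.

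Renin transcripts came from very few cells, and those cells were a larger share of the injured libraries. Cells with at least 10 Ren1 UMIs numbered 1, 0, 1, 1 and 2 in the control libraries, against 11, 10 and 24 after UIR and 28, 9 and 9 after UUO. All 96 were stromal, 89 of them in Fibro 2, the contractile cluster with smooth-muscle genes (Acta2, Tagln, Myh11) of which Ren1 itself was the second leading gene, and 7 in Fibro 3 of UUO. They held 93.8%, 94.5% and 98.3% of the Ren1 UMIs of control, UIR and UUO.

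As a share of kept cells, these Ren1-high cells were 0.0401%, 0%, 0.0509%, 0.0513% and 0.101% in controls. The 0 of 1858 cells of control library 2 allows a share of up to 0.161%. In UIR they were 0.275%, 0.134% and 0.437%, and in UUO 0.656%, 0.171% and 0.238%. The groups did not overlap, and the mean difference was 0.234 percentage points for UIR and 0.306 for UUO (two-sided exact permutation p of 0.0357 in both, also adjusted over the pair, which is the smallest 5 against 3 libraries allow). The floor of 3 cells behind the 0.161% of control library 2 covers counting error only.

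Within the stroma the shares overlapped. As a share of stromal cells Ren1-high cells were 2.86%, 0%, 2.22%, 3.57% and 6.90% in controls, 5.58%, 2.85% and 9.38% in UIR and 7.80%, 3.28% and 3.85% in UUO, so the groups overlapped (differences 2.83 and 1.87 percentage points, exact permutation p = 0.286 and 0.25). The share outside the PT differed by 0.204 and 0.256 percentage points (exact permutation p = 0.0714 each). Stroma itself was 1.403% to 2.29% of kept control cells, against 4.66% to 4.93% after UIR and 5.21% to 8.41% after UUO. Among called barcodes before filtering, 11 control, 55 UIR and 53 UUO barcodes had at least 10 Ren1 UMIs, of which 4, 3 and 0 were over the mitochondrial limit and 2, 7 and 7 were taken as doublets, and with the first, wider form of the doublet score no control cell stayed Ren1-high.

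The highest renin contents of single cells were found in UUO. The median Ren1-high cell held 150 Ren1 UMIs in controls, 37 in UIR and 68.5 in UUO, and the highest 316, 371 and 4102. Only UUO had cells over 1000 Ren1 UMIs, 5 in all, with 4102, 3897, 2932, 1453 and 1084, and in the first of them Ren1 was 20.7% of all UMIs. The top cell carried 23.2%, 48.2% and 47.6% of the Ren1 UMIs of the UUO libraries, 19.5% to 36.7% in UIR and 64.7% to 98.9% in the controls.

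**Figure D3:**
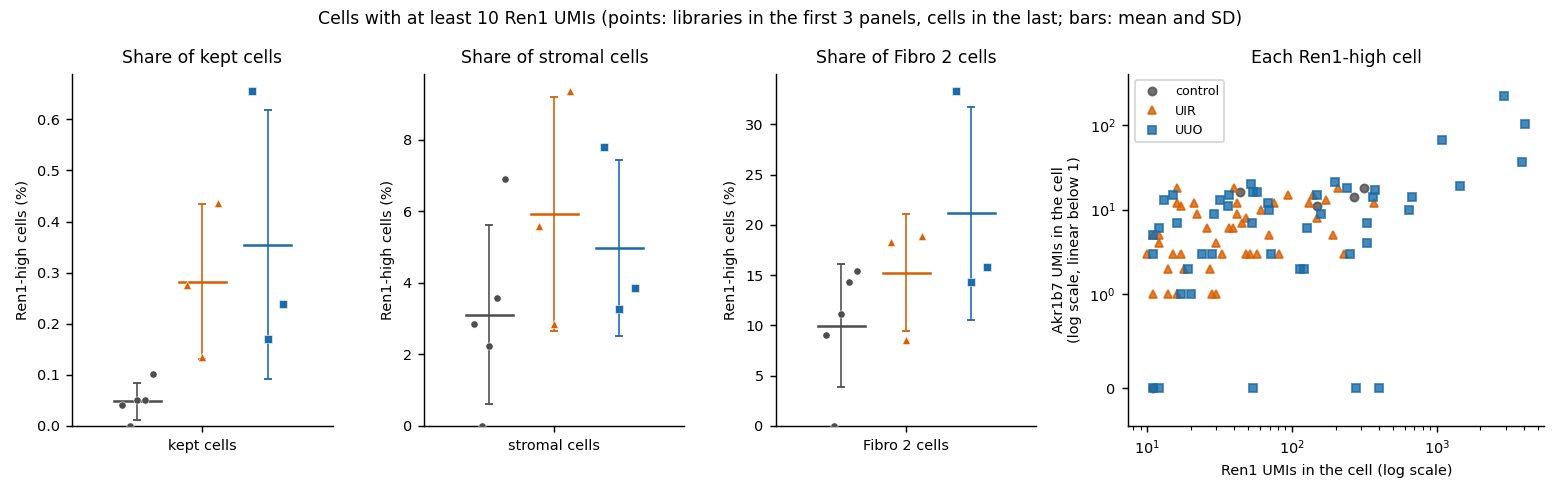
Share (%) of cells with at least 10 Ren1 UMIs among kept, stromal and Fibro 2 cells per library (first 3 panels, points are libraries, bars mean and SD), and Akr1b7 against Ren1 UMIs in each such cell (last panel, log axes, linear below 1). The groups separate among kept cells only, and the 5 cells over 1000 Ren1 UMIs are all from UUO.

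Averaged over stroma, Ren1 was highest in UUO and scattered widely between control libraries. The level was 152, 32.2, 1115, 63.8 and 2612 CPM in controls, 526, 309 and 898 in UIR, and 1902, 3212 and 5718 in UUO. UUO overlapped control library 5, and UIR lay inside the control range. The log2 change was 2.20 in UUO (SE 0.73, adjusted p = 0.038) and -0.42 in UIR (SE 0.76, adjusted p = 0.81). The UUO call was lost with DESeq2, at a mitochondrial limit of 50% (log2 0.84), with no doublet removal (0.95), and when control library 1, 2, 3 or 4 or UUO library 2 or 3 was left out (log2 1.68 without UUO library 3). With the 5 cells over 1000 Ren1 UMIs taken out, stroma of UUO had 1460, 897 and 383.

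Within Fibro 2 the injuries differed from each other. UIR had 1597, 995 and 1788 CPM and UUO 7547, 12592 and 19929, a log2 difference of 3.18 (SE 0.28, adjusted p = 3.9e-07) that ran from 2.74 to 3.47 when 1 library was left out. Without the 5 cells over 1000, the UUO values were 5839, 2128 and 1069, so that UUO library 3 then lay within the UIR range. Control Fibro 2 pools had only 7 to 13 cells each and gave 336, 74.9, 3752, 235 and 4872 as descriptions.

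Fibro 3, marked by Pdgfrb, Itga8 and Gata3, which mesangial cells and pericytes express, held no Ren1 UMI in controls (614217 UMIs from 106 cells) or in UIR. In UUO it had 160, 4392 and 603 CPM in 9 of 78, 8 of 46 and 7 of 54 cells. Against the floor of 3 UMIs over the control group (4.88 CPM), the summed UUO level of 1500 was at least 307-fold higher. As Ren1 passed the low-count filter there through the UUO pools alone, its edgeR call is counted above but gives this bound no support. UUO library 2, where 3 cells had 401, 328 and 114 Ren1 UMIs, weighed most, and without it the level was 379 CPM and the bound 77.7-fold, against 464-fold and 409-fold without UUO library 1 or 3. Free RNA in UUO droplets was also richer in Ren1: empty droplets held 45.3 to 73.1 CPM in UUO against 2.15 to 15.03 in controls and 2.23 to 10.9 in UIR, while T and NK cells, which should lack renin, held 1.88 in UUO, 0 in controls and 0.127 in UIR.

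For the whole library, Ren1 was 3.25, 0.559, 23.3, 1.31 and 34.1 CPM in controls, 24.6, 13.4 and 41.9 in UIR and 173, 164 and 325 in UUO. UUO lay above every other library. The log2 change was 3.68 in UUO (SE 0.79, adjusted p = 0.0010) and 0.69 in UIR (adjusted p = 0.47), and 2.99 between UUO and UIR (SE 0.90, adjusted p = 0.032). The last call was lost with DESeq2 and without UIR library 1 or 2 or UUO library 3 (log2 2.60 without the latter). Among kept cells outside the PT, Ren1 differed by 2.62 between UUO and control (adjusted p = 0.015) and by 2.92 between UUO and UIR, no longer called (adjusted p = 0.060). Over all members in whole-library pools 4 of 7 were called in UIR (background 61.2%), 5 of 7 in UUO (70.2%) and 2 of 7 between the injuries (20.5%), shares near the background.

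Akr1b7 was found in most of the same cells. It was found in 4 of 5 control, 45 of 45 UIR and 41 of 46 UUO Ren1-high cells. In the Ren1-high cells of Fibro 2 it was at 839, 1125 and 876 CPM in UIR and 1278, 3287 and 1169 in UUO, and in the other Fibro 2 cells of the same libraries at 447, 268 and 311 and at 312, 362 and 260. It was higher in the Ren1-high cells of all 6 libraries, with a log2 difference of 2.05 and library as a block (SE 0.19, adjusted p = 6.5e-08, 1.78 to 2.27 leaving out 1 library). Of 4035 genes in that comparison 37 were higher and 18 lower (1.36%), Akr1b7 having the lowest p. Enpep (log2 0.28, adjusted p = 0.68) and Agtr1a (0.06, adjusted p = 0.99) were not called between these cells.

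In stroma as a whole, no change of Akr1b7 was called. It had 196, 252, 173, 63.8 and 332 CPM in controls, 192, 118 and 224 in UIR, and 193, 231 and 189 in UUO, all inside the control range (log2 -0.13 and 0.04, 95% interval of the UUO difference -0.50 to 0.57). In Fibro 3 it had 0, 29.4 and 8.01 in the control pools and 156, 127 and 186 in UUO, a log2 change of 3.25 (SE 0.46, adjusted p = 1.9e-06). All control Fibro 3 cells together held 10 Akr1b7 UMIs. The gene passed the low-count filter there through the injured pools alone, so its edgeR call, counted above, gives the difference no support. Over the whole library Akr1b7 went from 0.927 to 4.38 in controls to 9.19, 5.27 and 10.9 in UIR and 17.9, 12.2 and 10.9 in UUO (log2 0.98, adjusted p = 0.022, and 1.61, adjusted p = 7.1e-04). The UIR call was lost without UIR library 1 or 3. Among kept cells outside the PT neither injury was called, with 2.68 to 12.1 CPM in controls, against 6.03 to 11.7 after UIR and 11.1 to 18.2 after UUO (log2 -0.02, adjusted p = 0.98, and 0.54, adjusted p = 0.19).

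Across 180 pools of 23 classes, the pattern of Ren1 was nearest to Akr1b7 (Pearson r 0.94 of log2(level + 10)), Aoc3 (0.90) and Kcnk3 (0.90), and that of Akr1b7 to Aoc3 (0.95), Ren1 and Cox4i2 (0.93). The pools share libraries and depth, so r is a description, and the rank correlation of Ren1 with Akr1b7 was 0.32 as most pools are at or near 0 for both. Agt was nearest to Slc7a12 (0.92), an amino acid transporter and one of the leading genes of the PT sub-cluster above, Slc6a18 and Galnt14 (0.81 each). Agtr1a was nearest to Gucy1a2 (0.92), Cspg4 and Gdf10 (0.89 each), and Agtr1b to Rergl (0.88). Agtr1b had a mean of only 0.208 CPM over the pools, and its rank correlation with Rergl was 0.41. Ace had no near companion (Akr1c14, 0.69). Enpep was nearest to Ildr2, Gabrb1 and Rhpn1 (0.83 each), and Mme to Sema3b (0.86), Pkp2 (0.85) and Pard6b (0.81).

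Ace was found in injured stroma, while the control stroma had none at the main settings. The converting enzyme had 0 UMIs in the stroma of all 5 control libraries (1080745 UMIs in all), 11.96, 12.6 and 8.93 CPM in UIR and 19.0, 15.5 and 24.1 in UUO. Against the floor of 3 control UMIs (2.78 CPM) the levels were at least 3.99-fold and 6.90-fold higher. Ace passed the low-count filter in stroma through the injured pools alone, so its edgeR calls, counted above, give these bounds no support. The calls were lost for both injuries at a mitochondrial limit of 50%, and the UIR call also with no doublet removal or the wider doublet score. The log2 changes, 6.64 in UIR and 7.38 in UUO, went down to 0.44 and 1.53 under the alternatives. The contrast with control stroma therefore depended on these settings.

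The signal sat in Fibro 1, the secretory fibroblasts rich in Col1a1 and Dcn. Fibro 1 had 23.2, 18.0 and 18.4 in UIR and 29.5, 22.9 and 43.9 in UUO, which did not differ by the test (log2 0.63, adjusted p = 0.43). Fibro 1 was 0% to 25.7% of stroma in controls, 15 cells in all, against 38.6% to 59.0% in UIR and 54.3% to 66.1% in UUO, so its Ace in controls was not detectable at this depth (floor 84.9 CPM, above every injured Fibro 1 pool). Fibro 2 and Fibro 3 had at most 1.77 and 4.03 in any pool.

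In PT and arterial endothelium no change of Ace was called. PT pools had 36.0 to 53.6 in controls, 50.1, 56.4 and 45.6 in UIR and 49.6, 32.2 and 53.0 in UUO (log2 0.27, 95% interval -0.02 to 0.56, and -0.04, -0.53 to 0.45). Arterial endothelium, the endothelial subtype with most Ace, had 52.5, 77.5, 72.3, 25.1 and 61.9 in controls, 47.1, 42.5 and 39.3 in UIR and 31.3, 44.4 and 34.4 in UUO, lower in mean but overlapping (log2 -0.42 and -0.65, adjusted p = 0.62 and 0.19). Capillary endothelium went the other way from a low level and had too few counts for a test, with 1 Ace UMI in all controls (at most 2.33 CPM in a pool), 4.60, 6.50 and 1.45 CPM in UIR and 8.45, 11.9 and 14.1 in UUO, above every control pool. In frTEC it was 0, 4.36 and 2.96 in controls, from 2 UMIs, 7.30, 10.7 and 7.27 in UIR and 6.96, 18.1 and 15.7 in UUO, with no overlap and no call (adjusted p = 0.23 and 0.073). In the Spink1 cluster, whose share of frTEC was 30.6%, 73.5% and 70.1%, Ace summed to 3.58, 11.4 and 17.6, and in the other to 0, 0.432 and 2.58. The richest class was a monocyte cluster, at 363 CPM over 14 control cells, 243 over 35 UIR cells and 197 over 166 UUO cells, with no test. It was named classical, but its marker score (0.94) was close to that for patrolling monocytes (0.886), so the types were not told apart.

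In contrast to the class levels, Ace per library fell. It was 32.7, 25.7, 26.4, 28.3 and 36.2 in controls, 9.75, 11.1 and 6.30 in UIR and 8.43, 9.40 and 8.12 in UUO, with no overlap (log2 -2.09, adjusted p = 8.0e-07, and -2.24, adjusted p = 2.3e-07). Leaving out PT cells, the log2 change was -0.78 in UIR (adjusted p = 0.0085) and 0.06 in UUO (adjusted p = 0.81). The share of Ace UMIs held by the PT went from 91.1% to 56.03% in UIR, and in UUO the cluster named classical monocytes held 37.8%, endothelium 24.0% and stroma 14.0%.

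Agtr1a, the main type 1 receptor gene of the mouse, fell in stroma after both injuries. Stroma had 537, 547, 483, 592 and 337 CPM in controls, 179, 64.2 and 107 in UIR, and 108, 122 and 199 in UUO. Every injured library lay below every control. The log2 change was -2.05 in UIR (SE 0.27, adjusted p = 1.6e-05) and -1.78 in UUO (SE 0.26, adjusted p = 4.3e-05). Both calls were lost at a mitochondrial limit of 50% (log2 -0.43 and -0.97).

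Within the receptor-rich subtype no change of the level was called. Fibro 3 had 841, 670 and 745 in the control pools, 725 in the only UIR pool and 787, 659 and 817 in UUO (log2 -0.09, SE 0.19, 95% interval -0.46 to 0.28). Fibro 2 was lower, at 70.4, 97.2 and 152 in UIR and 42.9, 87.9 and 116 in UUO, and Fibro 1 lowest. The Fibro 3 share of stroma was 42.9%, 56.8%, 80.0%, 71.4% and 48.3% in controls, 29.9%, 1.99% and 2.73% in UIR and 21.7%, 16.8% and 23.1% in UUO. Among UIR libraries, that with the highest stromal Agtr1a was also the one with 29.9% Fibro 3.

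**Figure D4:**
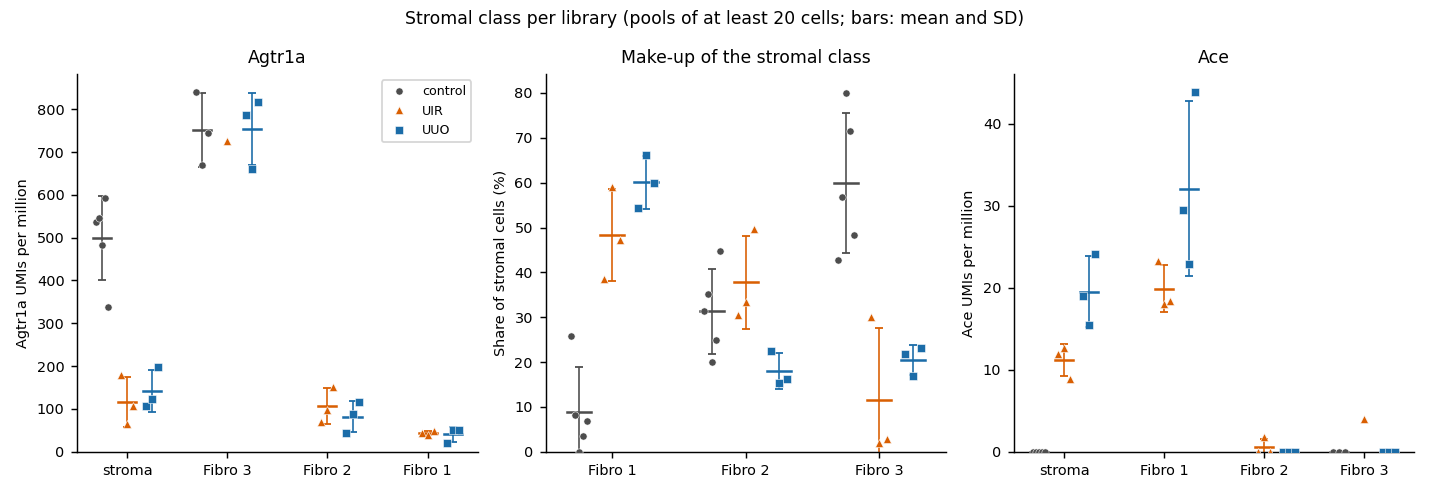
Agtr1a (left) and Ace (right) in CPM for stroma and its subtypes, and the share (%) of each subtype in stroma (middle), per library (points) with group mean and SD (bars). Agtr1a overlaps in the Fibro 3 pools of control and UUO, while the Fibro 3 share is lower in every injured library and Ace is drawn above 0 mainly in Fibro 1.

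In the PT Agtr1a was 21.3, 14.3, 16.9, 19.6 and 18.4 in controls, 14.3, 16.98 and 20.7 in UIR and 2.48, 21.5 and 12.5 in UUO (log2 -0.05 and -0.60, adjusted p = 0.93 and 0.42). Over the whole library it fell by 1.46 on the log2 scale in UIR (adjusted p = 6.5e-06) and by 1.39 in UUO (adjusted p = 6.3e-06). Agtr1b, the second type 1 receptor gene, was at the limit of detection, with 1 UMI in controls, 13 in UIR and 9 in UUO, all in stroma and too few to test. In UIR all 13 and in UUO 5 of its UMIs were in Fibro 2.

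Enpep, the aminopeptidase that starts the breakdown of angiotensin II, was a podocyte gene in every group. Podocytes had 1944, 1430, 1517, 1681 and 1782 CPM in controls, 1647, 1654 and 1652 in UIR and 2133, 1823 and 1925 in UUO. All UIR values fell inside the control range and UUO library 1 above it, and neither injury was called (log2 -0.02, 95% interval -0.24 to 0.20, and 0.19, -0.04 to 0.41).

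Outside podocytes, Enpep rose in some epithelia and fell in others. In the PT it was 49.1, 39.2, 33.4, 38.9 and 47.0 in controls, 51.8, 54.2 and 64.4 in UIR and 54.5, 96.7 and 65.4 in UUO (log2 0.47, adjusted p = 0.034, and 0.75, adjusted p = 0.029). All injured libraries lay above the controls, yet the UIR call was lost without control library 2, 3 or 4 or any UIR library (log2 0.41 to 0.52), and the UUO call without UUO library 2 (0.47). Both calls were also lost at a mitochondrial limit of 15%, and the UUO call with every barcode of at least 1000 UMIs and with the wider doublet score. The lowest log2 changes under any alternative were 0.29 in UIR and 0.44 in UUO. In frTEC it was 95.8, 78.4 and 77.1 in controls, 49.9, 47.6 and 43.9 in UIR and 32.02, 47.7 and 49.7 in UUO, with no overlap (log2 -0.93, adjusted p = 0.049, and -1.11, adjusted p = 0.015). The UIR call was lost without control library 1, 3 or 5, any UIR library or UUO library 2 or 3 (log2 -1.05 to -0.67), and the UUO call without control library 1 (log2 -0.85).

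In capillary endothelium and in stroma Enpep fell after obstruction. Capillary endothelium had 97.9, 77.6, 46.2, 149 and 71.7 in controls, 69.0, 63.7 and 55.2 in UIR and 25.4, 27.9 and 44.8 in UUO. All UUO pools lay below all others, with a log2 change of -1.65 against control (SE 0.27, adjusted p = 3.1e-05) and -1.03 against UIR (SE 0.26, adjusted p = 0.013), the latter lost without UIR library 2 (log2 -0.98) or UUO library 2 (-0.92). In stroma it went from 101, 32.2, 61.9, 46.4 and 87.1 to 35.8, 27.2 and 38.8 in UUO (log2 -0.98, adjusted p = 0.016), the ranges overlapping, the call lost without control library 1 (-0.74) or UUO library 2 (-0.85), and the direction turned with the wider doublet score (8.46). Other endothelial subtypes were low and had too few counts for a test. Glomerular endothelium summed to 3.72, 12.7 and 10.3 CPM in control, UIR and UUO, in the other direction, and arterial endothelium to 5.84, 1.58 and 3.12. Within Fibro 2, the subtype with most Enpep, UIR had 134, 122 and 135 and UUO 135, 107 and 121 (log2 difference -0.12, 95% interval -0.48 to 0.24), while the 53 control cells summed to 169. Fibro 2 was 20% to 44.8% of stroma in controls and 15.3% to 22.6% in UUO.

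Mme, neprilysin, which cleaves angiotensin I and natriuretic peptides, fell in intercalated cells and rose in most other tubular classes. Intercalated cells had 980, 466, 789, 847 and 775 CPM in controls, 486, 557 and 594 in UIR and 586, 559 and 567 in UUO. Control library 2 lay below every injured library and the other 4 controls above all of them. The log2 change was -0.76 in UIR (SE 0.18, adjusted p = 0.0036) and -0.82 in UUO (SE 0.18, adjusted p = 0.0010). Both calls were lost at a mitochondrial limit of 50% (log2 -0.08 and -0.21) and turned to 0.0228 and 0.0757 with the wider doublet score.

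Nearly all of this Mme came from the deeper intercalated cluster, led by Atp6v1g3 and Defb1. That cluster had 1220, 638, 931, 1212 and 895 in controls, 504, 639 and 703 in UIR and 592, 572 and 585 in UUO. It was 31.8% of the intercalated cells in controls, 49.4% in UIR and 74.7% in UUO, while the shallower cluster held 11 Mme UMIs in all controls (40.02 CPM). Within this cluster control library 2 overlapped the UIR range and the other 4 controls lay above every injured library, while the cluster's share of the class went up.

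Mme rose most in principal cells, the sodium- and water-handling cells of the collecting duct. It went from 5.26, 11.5, 7.46, 5.23 and 4.49 to 38.8, 42.5 and 52.3 in UIR and 52.2, 65.6 and 91.0 in UUO, with no overlap. The log2 change was 2.61 (SE 0.26, adjusted p = 1.6e-06) and 3.17 (SE 0.25, adjusted p = 3.5e-08), that is 6.09-fold and 8.99-fold. Empty droplets held Mme at 10.7 to 62.5 CPM in control libraries, 25.8 to 60.4 in UUO and 24.1 to 51.9 in UIR, and T and NK cells, which should hold little, 1.65, 3.56 and 2.38.

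The principal class was made of different clusters in control and injury. In the cluster led by Clu and Lcn2, with 2 control, 457 UIR and 427 UUO cells, Mme was 47.5, 52.5 and 72.0 in UIR and 53.2, 87.0 and 94.6 in UUO. In the cluster led by S100g and Aqp2, with 356, 197 and 11 cells, it summed to 5.40, 6.56 and 26.7, the last from 6 UMIs of UUO library 3 and none in the other UUO libraries. In the shallow cluster led by S100g and Calb1 it was 12.1, 56.9 and 82.3. In the smallest, led by Spink8 and Lcn2, with 4, 27 and 54 cells, a single Mme UMI was found, in UUO. Enpep in principal cells also rose, from 8 UMIs over all controls to 10.4, 10.7 and 12.5 CPM in UIR and 5.84, 5.50 and 5.93 in UUO (log2 2.80, adjusted p = 4.1e-04, and 1.75, adjusted p = 0.016), the UUO call being lost at a mitochondrial limit of 50%. No control pool exceeded 2.92 CPM, and Enpep passed the low-count filter there through the injured pools alone. Its edgeR calls, counted above, therefore give this rise no support. Empty droplets held a median of 10.2, 20.3 and 20.9 CPM of Enpep in control, UIR and UUO, and T and NK cells 1.65, 2.29 and 2.25. The levels in principal cells were thus below those of the empty droplets. Both calls stayed with free RNA subtracted, but they give no support there either, for the same reason. What part free RNA had in the rise was not tested.

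In the loop of Henle Mme was 141, 116, 112, 139 and 144 in controls, 221, 214 and 237 in UIR and 200, 236 and 258 in UUO, with no overlap (log2 0.53, adjusted p = 0.0048, and 0.57, adjusted p = 0.0023). Here too the clusters changed places: the cluster led by Egf held 242 of 245 control cells and had 132 CPM in controls, 148 in UIR and 167 in UUO, and the cluster led by Umod and Lcn2 held 1105 UIR and 682 UUO cells and had 227 in each. Podocytes, the second site by level, had 588, 388, 514, 584 and 562 in controls, 440, 507 and 598 in UIR and 498, 519 and 544 in UUO, and were not called (log2 -0.03 and -0.07). In frTEC neither injury was called (log2 -0.50 and -0.18, adjusted p = 0.36 and 0.74).

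PT Mme rose by the test, and the PT without its Serpina1a sub-cluster overlapped between groups. The PT had 56.4, 32.2, 33.6, 36.5 and 45.5 in controls, 65.8, 89.8 and 51.2 in UIR and 59.5, 140 and 128 in UUO (log2 0.81, adjusted p = 0.016, and 1.34, adjusted p = 0.0062). The sub-cluster held 28.5%, 50.6% and 9.56% of PT Mme UMIs in UIR and 37.5%, 44.6% and 82.9% in UUO, at 270 and 743 CPM. Without it the PT had 32.2 to 56.3 in controls, 51.0, 52.3 and 48.3 in UIR and 38.8, 83.0 and 25.7 in UUO, which overlap. The UIR call was lost without UIR library 2 (log2 0.53) and the UUO call without UUO library 2 (1.09). Both were also lost at a mitochondrial limit of 50%, the UIR call with every barcode of at least 1000 UMIs, and the UUO call at a limit of 15%. The lowest log2 changes under any alternative were 0.17 in UIR and 0.37 in UUO.

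**Figure D5:**
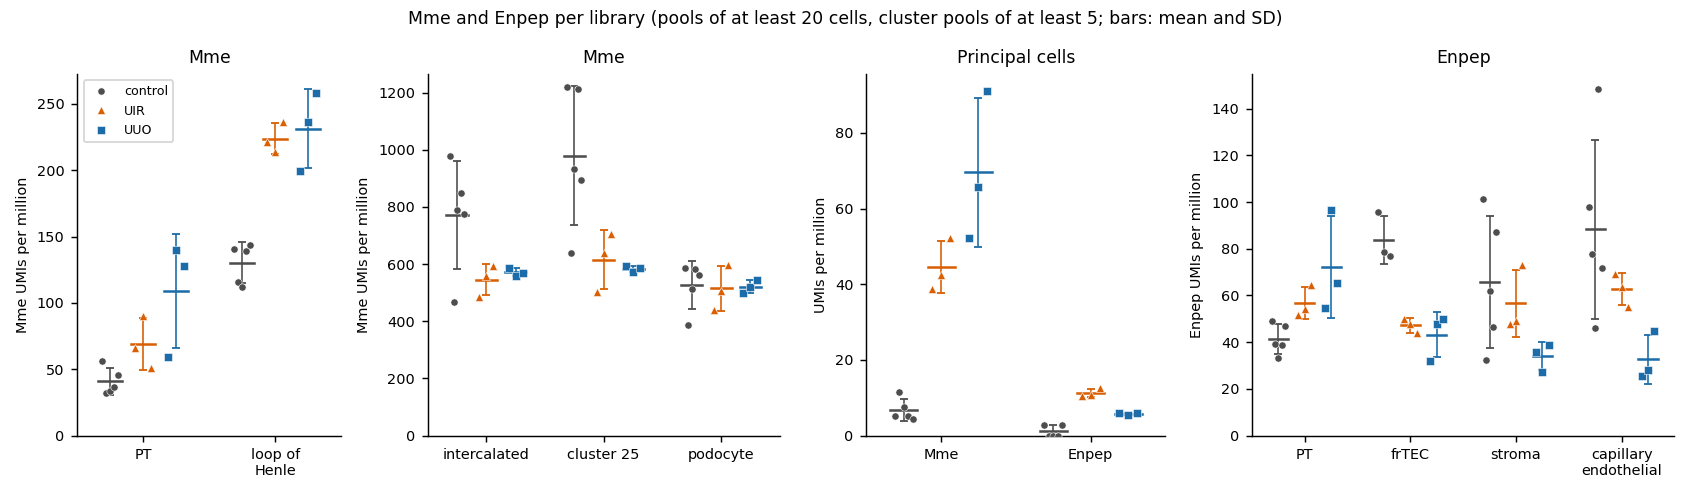
Mme in PT, loop of Henle, intercalated cells, intercalated cluster 25 and podocytes, Mme and Enpep in principal cells, and Enpep in 4 further classes, in CPM per library (points) with group mean and SD (bars). Mme is higher in every injured principal and loop pool than in any control, and podocyte Mme is not separated by group.

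Among the further genes of the pathway, cathepsin D and tissue kallikrein were called in the most classes. Of 18 further genes of the system 17 were counted and 14 tested, and 13 of 106 gene and class pairs were called in UIR (8 higher, 5 lower, 12.3%) and 30 in UUO (17 higher, 13 lower, 28.3%), beside 11.2% and 17.5% of all pairs. Between UUO and UIR 10 of 125 were called (2 higher, 8 lower, 8%, beside 1.88%), and all 8 lower calls were Klk1. Ctsd, the lysosomal protease cathepsin D, rose by 3.31 on the log2 scale in macrophages of UIR and by 4.05 in UUO, and by 0.99 and 1.11 in the loop of Henle. Prcp, which trims angiotensin II at its end, rose in the loop of Henle (0.95 and 0.79), and Anpep, aminopeptidase N, in stroma (2.38), macrophages (1.87) and the loop of Henle (3.27) of UUO. Anpep fell in frTEC of UUO (-1.53) and in intercalated cells of UIR (-1.02) and UUO (-1.97).

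Klk1, tissue kallikrein, made up 9 of the 13 lower calls in UUO. It fell by 1.20 in principal cells of UIR and by 3.21 in UUO, but in UUO also in endothelium (3.75 lower on the log2 scale), stroma (3.78), macrophages (3.92) and T and NK cells (4.15), classes not known to make it, and what part free RNA has in the tubular values was not tested. Atp6ap2, the prorenin receptor, fell slightly in principal cells (-0.36 and -0.39).

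Genes that set renin release were called lower more often than higher. Of 64 pairs over 16 genes, 11 were called in UIR (2 higher, 9 lower, 17.2%) and 19 in UUO (4 higher, 15 lower, 29.7%), beside 11.2% and 17.5% of all pairs. The lower calls were 14.1% and 23.4% of these pairs, where 4.99% and 8.35% of all pairs were called lower. In the loop of Henle, which includes the macula densa that senses salt, Nos1 fell by 6.05 in UIR and by 6.63 in UUO, Casr by 0.92 and 1.39, and Ptgs2 by 3.08 in UUO, beside the change of clusters in that class given above. In stroma, the prostaglandin receptor Ptger4 (-1.24 and -1.43), the connexin Gja5 (-2.95 and -1.58) and the natriuretic peptide receptor Npr1 (-0.78 and -1.04) fell in both, and Adcy5 (-1.10), Adcy6 (-0.91) and Gucy1b1 (-0.72) in UUO, beside the change in the make-up of stroma given above. Adrb1, the receptor through which sympathetic nerves release renin, rose in principal cells (2.73 and 2.76), whose clusters also differed between control and injury, and fell in macrophages of UIR (-2.50). Between Ren1-high cells and the other Fibro 2 cells, none of the 12 genes of these lists that were tested was called by edgeR (1 at an unadjusted p under 0.05, Npr1).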

How the data were processed

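The authors deposited raw barcode matrices of UMI counts per gene for 11 libraries (10x 3′ chemistry, mouse build mm10), 28692 genes and every barcode. The submitters' notes name Cell Ranger 3.1.0, while the study's methods name another version, and the decontamination and doublet removal that the methods describe are not in these counts. The series holds 5 control, 3 UIR and 3 UUO libraries, grouped by their labels.

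Cells were called here per library as barcodes above 1/10 of the 99th percentile of the top 3000, plus barcodes of at least 500 UMIs that differed from the empty-droplet profile (ranks 45000 to 90000, 10000 simulations, adjusted p 0.01). Barcodes over 30% mitochondrial or 5% hemoglobin UMIs or under 200 genes were dropped, as were the 7.5% with the highest doublet scores (20 neighbours). That number of neighbours replaced a wider form after the first form was seen to remove control stromal cells that carried no markers of another compartment, and the limits for naming a cluster (score 0.45, detected share 0.05, and a margin of 0.1 over the next class where no marker of its own was among the top 10 genes) were revised once after the marker tables were seen. Cells were clustered on 2000 variable genes, 40 components and 20 neighbours (Leiden resolution 1), and 4236 kept cells stayed unnamed.

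Counts were summed per library and class (at least 20 cells) and tested with edgeR 4.0.16 (quasi-likelihood, TMM, filterByExpr, Benjamini-Hochberg, threshold 0.05) in R 4.3.3, the 3 groups in 1 model. DESeq2 1.42.0 was an alternative. Single shares were tested by an exact permutation test (scipy 1.17.1). The tests were tried on simulated counts first. Intervals of log2 changes are approximate 95% intervals from the edgeR change and its SE, and so measure the spread between libraries. Floors are 3 counts and cover counting error only. Depth sets what can be seen: kept cells had a median of 2587 to 4987 UMIs per control library, 3178 to 4053 per UUO library and 2588.5 to 3831 per UIR library.

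The genes named are the 8 members in every class, 18 further pathway genes and 16 renin-release genes counted as lists and named where called (a withheld item is not reported here), and for each member the 3 genes nearest in pattern among those of mean at least 5 CPM. Members and lists were chosen with earlier results of these data known. The levels by cluster, the split of PT by its Serpina1a sub-cluster, the comparison of Ren1-high with other Fibro 2 cells, the shares of stroma and of Fibro 2, and the wider doublet form were added after seeing the data. Alternatives covered the tool, the low-count filter, each library and control label set left out, pool size, mitochondrial limits of 15% and 50%, all barcodes of at least 1000 UMIs, free-RNA subtraction, the number in the title as a block, clustering and doublets. Replicate numbers follow accession order within a group.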

Additional observations from a re-analysis of the deposited data

Results flagged for a closer look

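In 3 of 42 groups of 4 or 5 library values a single control library stood apart from the rest by Dixon's gap ratio, about what chance gives at 1 in 20. Ace in PT S3 was 152 CPM in control library 5, against 87.5 to 102 in the others. Agtr1a in PT S2 was 18.2 in control library 1, against 14.5 to 14.6. Mme in macrophages, a class where it is near the free-RNA level, was 30.2 in control library 3, against 0 to 5.55.

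UUO and UIR differed by the test of the difference itself (edgeR's quasi-likelihood test, Benjamini-Hochberg adjusted) for 5 results. Ren1 in Fibro 2 was 3.18 higher in UUO on the log2 scale (3 libraries against 3, no overlap, adjusted p = 3.9e-07), and in all kept cells 2.99 higher (adjusted p = 0.032). Agt in frTEC cluster 17 was 1.68 higher (adjusted p = 0.0095). Enpep in capillary endothelium was lower by a log2 difference of -1.03 (adjusted p = 0.013), and Mme in all kept cells by -0.50 (adjusted p = 0.035). The Mme call was lost when any 1 of the 6 injured libraries was left out (log2 -0.53 to -0.45).

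Empty droplets, which are outside the pools of cells tested, carried renin-cell transcripts in UUO. Their median was 70.0 CPM of Ren1 (45.3 to 73.1) against 4.76 in controls (2.15 to 15.03), and 4.45 CPM of Akr1b7 (4.33 to 11.998) against 0.460 (0.185 to 2.38). Both UUO ranges lay above the control ranges.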

How the results depend on the processing

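Of 40 called results, 17 kept direction and call under every alternative run, and of 867 alternative values 779 did, 85 kept the direction without the call, and 3 reversed. Among the 17 are Ren1 and Akr1b7 in Fibro 3 of UUO and Enpep in principal cells of UIR. These passed the low-count filter through the injured pools alone, so that their calls stayed gives them no support. All 3 reversals came with the wider doublet neighborhood: Mme in intercalated cells (log2 0.0228 in UIR and 0.0757 in UUO) and Enpep in stroma of UUO (8.46). The causes were not tested. The count of members called in class pools was 10 in UIR and 12 in UUO, and at a mitochondrial limit of 15%, where only 11 pairs could be tested, 1 and 0, both by edgeR. With every barcode of at least 1000 UMIs it was 7 in UUO. Leaving out 1 library it ran from 7 to 10 in UIR, 8 to 14 in UUO and 0 to 1 between UUO and UIR. That last count, 0 in the report, was 1 with DESeq2, 8 with no filter on low counts, 3 at a limit of 15%, 1 with barcodes of at least 1000 UMIs, 1 at Leiden resolution 2 and 1 with the wider doublet neighborhood.

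The difference in the share of Ren1-high cells (0.234 percentage points in UIR, 0.306 in UUO) lost its call as a share of cells outside the PT (0.204 and 0.256), of stroma (2.83 and 1.87) and of Fibro 2 (5.28 and 11.2), and in UIR with at least 20 Ren1 UMIs (0.163). Leaving out 1 library it was 0.156 to 0.308 in UIR and 0.156 to 0.398 in UUO, where the exact permutation test cannot go below 0.0571 to 0.0952.

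With the number in the title as a replicate block, 9 members were called in UIR, 12 in UUO and 3 between UUO and UIR. Same-numbered UIR and UUO libraries correlated in their deviations by 0.083 to 0.443 over all kept cells, 0.106 to 0.525 in the loop of Henle, 0.064 to 0.179 in stroma, 0.034 to 0.403 in endothelium and -0.147 to 0.273 in principal cells. Over all kept cells not every library correlated best with its own number (different numbers reached 0.278), although the UIR and UUO libraries with no number correlated best with each other in all 5 pools, and no label says that a number marks a shared day or batch, so the numbers were not taken to pair libraries. Whole-library counts (11 of 21) stayed within 8 to 12 with 1 library left out. The few PT cells of UUO, the few stromal cells of controls and the cells lost to the mitochondrial limit bound what could be seen.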

Other observations

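Ren1-high cells differed from the other Fibro 2 cells of the same UIR and UUO libraries in 55 of 4035 genes besides Ren1, which chose them, by edgeR (quasi-likelihood, Benjamini-Hochberg adjusted). The genes named here were chosen after their values were seen. Next to Akr1b7, the lowest p-values belonged to Fam46a (2.33 higher on the log2 scale, adjusted p = 2.3e-06), Fign (1.79, adjusted p = 2.8e-06) and Slco2a1, a prostaglandin transporter (1.37, adjusted p = 9.7e-06). Ctsb, the lysosomal protease cathepsin B, was 0.93 higher (adjusted p = 7.4e-04). Dkk2 (1.46), Sfrp2 (1.28) and Igfbp5 (0.74), all among the leading genes of the Fibro 3 cluster, were higher too (adjusted p = 2.5e-04, 3.7e-04 and 8.5e-04). Tm4sf1, also among the leading genes of that cluster, was lower (-0.50, adjusted p = 0.025), and its other leading genes were not called. Among the 18 lower genes were Cd74 (-1.19) and Lyz2 (-2.49), genes of myeloid cells, and Rergl (-0.86) and Susd5 (-0.79). The latter pair were also the nearest genes over all pools to Agtr1b, itself at the limit of detection (mean 0.208 CPM).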
